A study of Mus musculus with 8 samples.

Results

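The macrophage and leukocyte genes described here are 45 genes of the immune cells of the heart and of their ligands. They run from the pan-leukocyte gene *Ptprc* (CD45) to the macrophage genes *Csf1r*, *Adgre1* and *Cd163* and the lymphocyte and neutrophil genes *Cd3e* and *S100a8*. Not every member is particular to immune cells. The members were taken by gene name, from a list chosen with earlier results of these data known. All 45 were found among the 46040 genes of the count table. RNA sequencing was performed on left ventricles (LVs) of mice with angiotensin II (angII)-induced pressure overload, with 4 libraries of control mice and 4 libraries of mice homozygous for a VEGFR-1 that lacks its intracellular tyrosine kinase domain (VEGFR-1 TK-/-). The comparison addresses what the loss of VEGFR-1 signaling changes in the transcriptome of the overloaded heart. All mice were male C57BL/6 mice of 5 to 7 months, the controls were littermates, and every mouse received angII from a subcutaneous minipump at 0.1 mg/kg/h until day 14. Tissue could be taken only from mice alive on that day. The allele is carried by every cell of the animal, macrophages included. None of these libraries came from a mouse without angII, so the response to angII itself cannot be read from them.

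The labels of each library conflict. The genotype tag and the library name give one genotype, and the sample title gives the opposite one. The tags decided the grouping here, and the groups are called control-tagged and TK-/- tagged. If the titles are right, every direction given here turns around and every size and p-value stays the same. The count of *Flt1*, the gene of VEGFR-1, covers the whole gene and does not separate the deleted domain. Its level was 56.9 to 84.3 normalized CPM, the counts scaled to a common library size, in the control-tagged libraries and 144 to 170 in the TK-/- tagged ones. It was 1.19 ± 0.12 higher on the log2 scale in the latter (FDR = 0.00808). Library totals lay between 11449137 and 16239670 counts. The library names contain the word cardiomyo, whereas the source is given as LV tissue. The libraries held the cardiomyocyte gene *Myh6* at 22322 to 37065 normalized CPM, together with the endothelial gene *Pecam1* at 228 to 365 and the macrophage gene *C1qa* at 39.4 to 79.0. The adipocyte gene *Adipoq* was at 0 in 5 of the 8 libraries.

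The healthy heart contains resident macrophages that lie between the cardiomyocytes, take up dead cells and debris, and carry scavenger receptors such as CD163 and the mannose receptor. They depend on colony-stimulating factor 1, which binds the receptor kinase encoded by *Csf1r*. Under pressure overload, blood monocytes enter the wall and become macrophages, and VEGFR-1 is itself a receptor of the monocyte lineage. Lymphocytes, neutrophils and mast cells are rare in the myocardium.

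Levels of different genes were compared as RPKM, the normalized CPM divided by the length of the exons in kilobases. The RPKM of the members ranged over 2161-fold, from 0.0773 for *Ms4a1*, a B-cell gene, to 167 for *Lyz2*, the lysozyme of myeloid cells. *Gas6*, the ligand of the TAM receptors, came next at 87.8 RPKM, but this ligand is also made by other cells of the heart. *Tyrobp* followed at 23.7, *Ctss* at 23.4, the TAM receptor *Axl* at 20.4 and *Cbr2* at 17.9 RPKM. *Fcgr3* and *Fcer1g*, whose products form one Fc receptor complex, were both at 16.1 RPKM. *Csf1r* was at 10.9 and its ligand *Csf1* at 10.3 RPKM. *Cd163* was at 2.42, *Trem2* at 0.855 and *Ptprc* at 0.711 RPKM. The T-cell genes *Cd3e*, *Cd3g* and *Cd8a* had the low values of 0.147, 0.202 and 0.208 RPKM, and the inflammasome gene *Nlrp3* was at 0.174. Of the 44 pairs of neighbours in this order, 43 overlapped in their range over the 8 libraries. The exception was *Gas6* at 79.7 to 117 RPKM above *Tyrobp* at 15.9 to 30.5. The 45 members together added up to 860 to 1342 normalized CPM in a library.

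**Figure D1:**
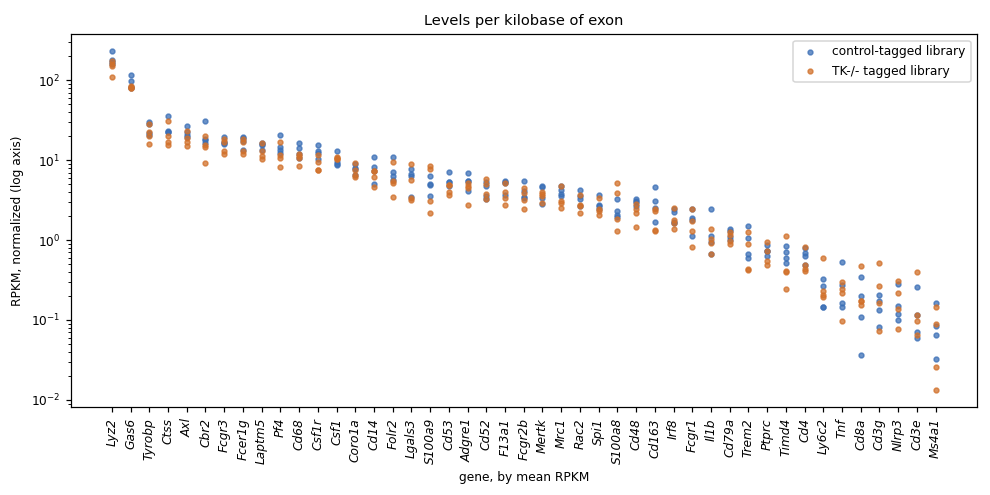
Level of each member in RPKM on a log axis, as points for the 8 libraries (blue control-tagged, orange TK-/- tagged), ordered by mean level. *Lyz2* and *Gas6* lie above the other members, and *Cd8a*, *Cd3g*, *Nlrp3*, *Cd3e* and *Ms4a1* lie at the lower end.

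Of the 45 members, 41 passed the filter on low counts (at least 1 CPM in at least 2 libraries). The other 4 were *Cd3g*, *Ms4a1*, *Ly6c2* and *Tnf*. No member was called as changed. A call needed an FDR under 0.1, the p of the quasi-likelihood test of edgeR after Benjamini-Hochberg adjustment over 13542 genes, and a log2 fold change of 0.585 or more in either direction. This test called 0.00738% of all genes, a single gene, which was *Flt1*. The likelihood ratio test of edgeR, which called 0.391% of all genes, and DESeq2 called no member either. The lowest FDR of any member in any of the 17 fits was 0.228. An unadjusted p under 0.05 was reached by 2 members, *Csf1r* and *Cd163*, against 8.96% of all genes. Both were lower in the TK-/- tagged libraries, as 5.64% of all genes were at this p. Without control-tagged replicates 1, 2, 3 and 4 in turn this number was 4, 4, 3 and 6, and without TK-/- tagged replicates 1, 2, 3 and 4 it was 8, 2, 1 and 11. No member separated all TK-/- tagged libraries from all control-tagged ones, as 4.98% of all genes did, 2.53% with the TK-/- tagged libraries lower.

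The members still leaned to one side. In the TK-/- tagged libraries 34 of the 41 tested members had a lower mean on the fitted scale and 7 had a higher one, against 50.3% lower among all genes tested. The median log2 fold change was -0.26 for the members and -0.00 for all genes. Leaving out 1 library at a time kept the members' median between -0.32 and -0.16. In whole LV tissue, fewer cells of a type and less RNA per cell cannot be told apart. Only *Cd163* reached a log2 fold change of 0.585 in either direction, as 3.6% of all genes did. The summed normalized CPM of the members was 1120 to 1342 in the control-tagged libraries and 860 to 1119 in the TK-/- tagged libraries, so the ranges nearly touched. *Lyz2* and *Gas6* weighed most in this sum, with control-tagged means of 245 and 240 normalized CPM. *Gas6* is also made by other cells of the heart. Genes of 1 cell type vary together across libraries, so the 34 lower members are not independent measurements.

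**Figure D2:**
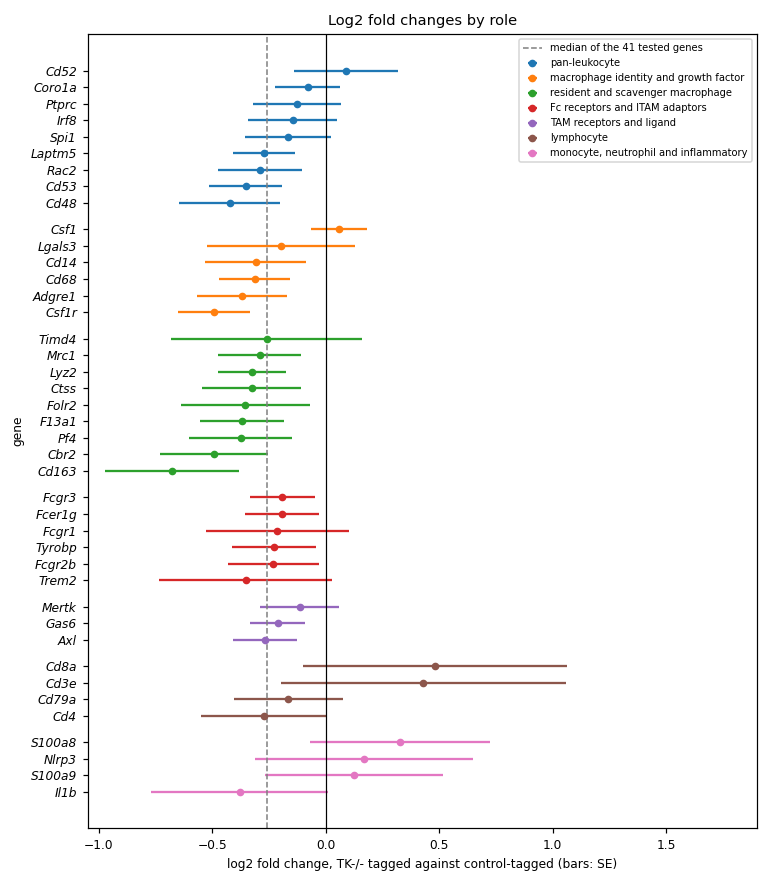
Log2 fold change of each of the 41 tested members, TK-/- tagged against control-tagged, with bars for the SE and colours for the role. Most points lie left of 0 around the dashed median of -0.26, and the genes right of 0 belong mainly to the lymphocyte and the neutrophil and inflammatory groups.

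The plot of deviations by library shows which libraries carried this lean. Control-tagged replicate 2 was the highest library for 17 members, and TK-/- tagged replicate 3 was the lowest for 21. The median deviation of the members from their own mean was 0.32 on the log2 scale in the former and -0.39 in the latter. Cardiomyocyte genes went the other way, with a mean deviation of -0.35 in control-tagged replicate 2 and 0.26 in TK-/- tagged replicate 3. These were their lowest and highest values among the 8 libraries. Whether this bears on the members was not tested. A mixed picture came from TK-/- tagged replicate 1, the highest library for 8 members and the lowest for 7. The spread between libraries of one group, as the median coefficient of variation over the members, was 20.4% in the control-tagged and 26.5% in the TK-/- tagged libraries.

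**Figure D3:**
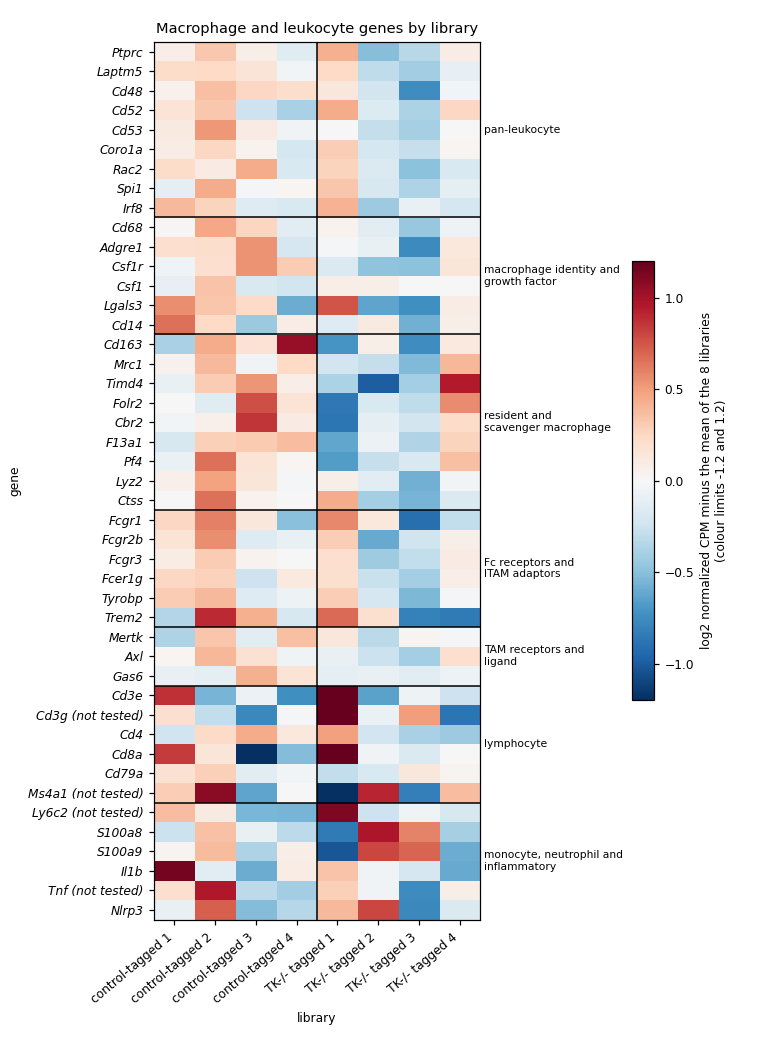
Log2 normalized CPM of each member in each of the 8 libraries, as the deviation from the member's mean over all libraries, with members ordered by role. Control-tagged replicate 2 is mostly above and TK-/- tagged replicate 3 mostly below the mean. TK-/- tagged replicate 1 is high for T-cell genes and low for most resident macrophage genes, except *Ctss* and *Lyz2*.

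Promoter sequences were available from RefSeq (GRCm38.p6) for 36 of the 45 members, as 44 windows from 250 bases before to 50 bases after a transcription start. They were searched on both strands for GAGGAAGT, whose other strand reads ACTTCCTC, a sequence bound by PU.1, the product of *Spi1*. It was found in 7 of the 44 windows (15.9%), which belong to *Cd53*, *Ctss*, *F13a1*, *Ly6c2*, *Pf4* and *S100a8*, and in 3.20% of all 32851 windows of the same length. The windows of *Ly6c2* overlap and hold the same matches, so this gene is counted more than once. In *Cd53* and *F13a1* the match lies after the start. A match is a description of the sequence and not a measured site. The windows of *Ctss*, *Pf4* and *S100a8* are shown with that of *Cd163*, the member with the lowest log2 fold change, which holds no match. Each runs from 250 bases before to 20 bases after the start, on the plus strand, with the motif in capitals.
*Cd163*, chr6:124304401-124304670: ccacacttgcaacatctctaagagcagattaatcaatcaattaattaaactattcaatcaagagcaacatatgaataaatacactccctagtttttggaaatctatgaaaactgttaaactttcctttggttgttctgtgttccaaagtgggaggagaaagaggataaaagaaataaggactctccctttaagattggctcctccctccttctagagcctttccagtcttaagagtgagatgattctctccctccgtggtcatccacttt
*Ctss*, chr3:95526536-95526805: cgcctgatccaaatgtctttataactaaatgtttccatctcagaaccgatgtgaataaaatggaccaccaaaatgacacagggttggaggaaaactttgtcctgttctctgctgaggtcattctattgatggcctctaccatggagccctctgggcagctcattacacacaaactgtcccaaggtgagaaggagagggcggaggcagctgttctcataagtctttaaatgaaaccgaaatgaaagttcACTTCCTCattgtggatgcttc
*Pf4*, chr5:90772185-90772454: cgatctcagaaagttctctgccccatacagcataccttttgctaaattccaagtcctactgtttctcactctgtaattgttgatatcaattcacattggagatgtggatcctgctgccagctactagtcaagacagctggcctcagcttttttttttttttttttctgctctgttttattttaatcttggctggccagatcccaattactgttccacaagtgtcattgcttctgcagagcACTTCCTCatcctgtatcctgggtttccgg
*S100a8*, chr3:90668821-90669090: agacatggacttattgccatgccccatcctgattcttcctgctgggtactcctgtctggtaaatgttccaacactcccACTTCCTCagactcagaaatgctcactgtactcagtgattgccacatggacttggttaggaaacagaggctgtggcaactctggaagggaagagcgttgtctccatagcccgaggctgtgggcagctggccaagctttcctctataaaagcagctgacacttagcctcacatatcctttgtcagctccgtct
The motif begins 2 bases before the start in *Ctss*, 10 bases before it in *Pf4* and 172 bases before it in *S100a8*. These 3 genes had log2 fold changes of -0.33, -0.37 and 0.33, and *Spi1* itself of -0.17.

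The pan-leukocyte group holds genes of all or most white blood cells. *Ptprc* encodes CD45, the phosphatase on every leukocyte. Its level was 13.5, 15.97, 13.4 and 11.5 normalized CPM in control-tagged replicates 1 to 4 and 17.2, 8.88, 10.1 and 13.6 in TK-/- tagged replicates 1 to 4. The highest and the lowest library were both TK-/- tagged, replicates 1 and 2, so the groups overlapped over the whole control range. The log2 fold change was -0.13 ± 0.19 (SE, FDR = 0.877). *Spi1* encodes PU.1, the transcription factor that drives the myeloid lineage. It was at 6.66, 9.87, 7.13 and 7.36 normalized CPM in the control-tagged libraries and at 9.10, 6.30, 5.53 and 6.70 in the TK-/- tagged libraries, with a log2 fold change of -0.17 ± 0.19 (FDR = 0.825). TK-/- tagged replicates 1 and 4 lay within the control range, replicate 4 near its lower end, and replicates 2 and 3 lay below it. *Cd48*, a ligand of lymphocyte and natural killer cell receptors, had the lowest fold change of the group. It was at 3.14, 3.92, 3.63 and 3.52 normalized CPM against 3.33, 2.57, 1.74 and 2.95, a log2 fold change of -0.42 ± 0.22 (FDR = 0.607, exact 2-sided permutation p = 0.0571). Only TK-/- tagged replicate 1 reached into the control range. With 4 against 4 libraries the smallest p of the exact permutation test is 0.0286.

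*Cd52*, a small surface glycoprotein of leukocytes, was the single member of the group above 0. Its level was 5.69, 6.39, 4.24 and 3.84 normalized CPM in the control-tagged libraries and 6.99, 4.53, 3.87 and 6.06 in the TK-/- tagged libraries, giving a log2 difference of 0.09 ± 0.23 (FDR = 0.933). The groups overlapped, and the sign turned when single libraries were left out. The other members had log2 fold changes between -0.35 and -0.08. *Cd53*, a tetraspanin, was lowest among them at -0.35 ± 0.16 (FDR = 0.556, exact permutation p = 0.0857), followed by *Rac2*, a GTPase of the leukocyte cytoskeleton, at -0.29 and the lysosomal *Laptm5* at -0.27. *Irf8*, a transcription factor of monocytes and dendritic cells, was at -0.15 and *Coro1a*, which binds actin, at -0.08. Over the group, 8 of 9 members were below 0 and none was called, with a median log2 fold change of -0.17.

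The macrophage identity group holds the surface and lysosomal proteins by which macrophages are usually recognised, with the growth factor that maintains them. *Csf1r*, the receptor of colony-stimulating factor 1, had the lowest p of the 41 tested members. Its level was 59.1, 70.4, 89.2 and 75.5 normalized CPM in the control-tagged libraries and 54.3, 43.8, 43.5 and 67.5 in the TK-/- tagged libraries. TK-/- tagged replicates 1 to 3 lay below every control-tagged library, and replicate 4 lay within the control range. The means were 73.6 ± 12.5 and 52.3 ± 11.3 (SD, n = 4 each). The log2 fold change was -0.49 ± 0.16 (unadjusted p = 0.00945 and FDR = 0.464 in edgeR, exact 2-sided permutation p = 0.0571). Across 16 alternative settings it stayed between -0.64 and -0.39 with an unadjusted p of 0.00126 to 0.0313 and an FDR of 0.228 to 0.941. *Csf1r* shares 873 of its 5774 exon bases with *Hmgxb3* on the opposite strand, and how the counting treated strand is not given in the sources used here. *Hmgxb3* itself had a log2 fold change of 0.03.

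*Csf1*, the ligand of this receptor, was at 50.8, 68.8, 47.8 and 46.5 normalized CPM in the control-tagged libraries and at 57.3, 56.7, 54.4 and 54.3 in the TK-/- tagged libraries. The TK-/- tagged libraries lay close together inside the control range, and the log2 fold change was 0.06 ± 0.12 (FDR = 0.917). *Cd68* encodes a lysosomal glycoprotein widely used as a macrophage stain. It was at 14.9, 20.5, 17.7 and 13.5 normalized CPM against 15.2, 13.5, 10.7 and 14.2, with a log2 fold change of -0.31 ± 0.15 (FDR = 0.588, exact permutation p = 0.171). Replicates 2 and 3 of the TK-/- tagged libraries lay below all control-tagged ones, replicate 2 by a small margin, and the other 2 near their lower end. *Adgre1* encodes F4/80, the classical surface marker of mouse macrophages. It was at 17.8, 17.9, 22.5 and 13.4 normalized CPM in the control-tagged libraries and at 15.2, 14.5, 9.01 and 16.8 in the TK-/- tagged libraries, with a log2 fold change of -0.37 ± 0.20 (FDR = 0.612, exact permutation p = 0.229). Control-tagged replicate 4 lay below 3 of the 4 TK-/- tagged libraries. *Cd14*, the co-receptor for bacterial lipopolysaccharide, had a log2 fold change of -0.31 ± 0.22 (FDR = 0.715), and *Lgals3*, the lectin galectin-3, of -0.20 ± 0.32 (FDR = 0.886).

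**Figure D4:**
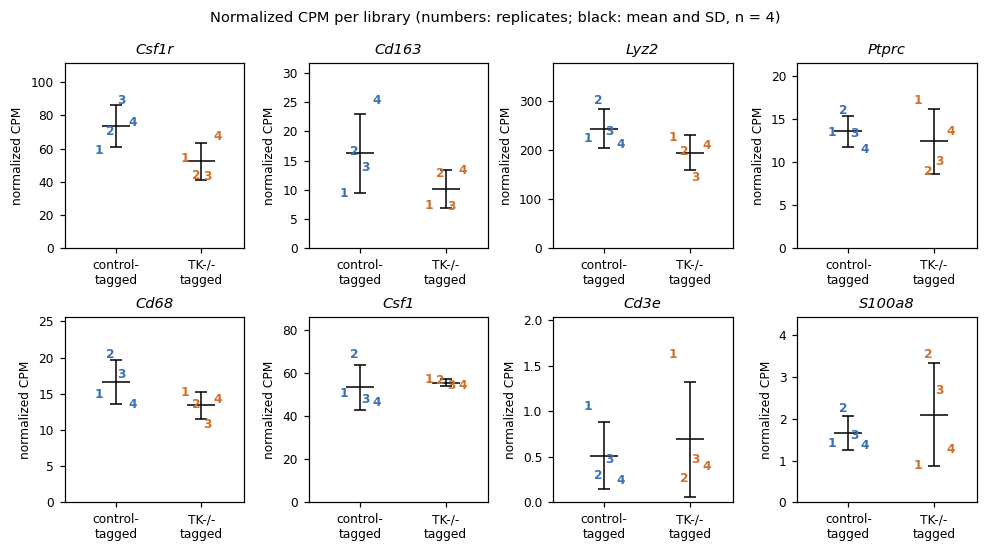
Normalized CPM of named members in each library (blue control-tagged, orange TK-/- tagged), as replicate numbers, with black bars for the mean and SD of each group (n = 4). The groups overlap in every panel, and for *Csf1r* and *Lyz2* 3 of the 4 TK-/- tagged libraries lie below all control-tagged ones.

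The resident and scavenger group was below 0 in 9 of 9 members, and its median log2 fold change of -0.35 was the lowest of the 7 roles. *Cd163* takes up complexes of hemoglobin and haptoglobin. Its level was 9.28, 16.6, 13.8 and 25.3 normalized CPM in the control-tagged libraries and 7.39, 12.8, 7.19 and 13.2 in the TK-/- tagged libraries. TK-/- tagged replicates 1 and 3 were below all control-tagged libraries, and control-tagged replicate 4 stood above all others. The log2 fold change was -0.68 ± 0.29 (unadjusted p = 0.0403 and FDR = 0.538 in edgeR, exact 2-sided permutation p = 0.143). Leaving out 1 library at a time moved it between -0.87 and -0.39, the latter without control-tagged replicate 4. *Mrc1* encodes the mannose receptor CD206. It was at 23.9, 30.3, 22.4 and 27.3 normalized CPM against 19.6, 18.8, 15.9 and 30.4, a log2 fold change of -0.29 ± 0.18 (FDR = 0.666, exact permutation p = 0.200). TK-/- tagged replicates 1 to 3 lay below the control range and replicate 4 just above it. Without that library the log2 fold change of *Mrc1* was -0.52, and without TK-/- tagged replicate 3 it was -0.18.

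*Lyz2*, the lysozyme of macrophages and neutrophils, had the highest count of the group. It was at 225, 303, 238 and 213 normalized CPM in the control-tagged libraries and at 227, 198, 145 and 211 in the TK-/- tagged libraries. Of the TK-/- tagged libraries, replicate 1 reached into the control range and the other 3 lay below it. The log2 fold change was -0.33 ± 0.15 (FDR = 0.559, exact permutation p = 0.0857). *Lyz1*, a near-identical copy, was at 0.3998 to 2.15 normalized CPM. *Timd4*, a receptor for phosphatidylserine on embryonically seeded macrophages, was read from 6 to 31 counts per library. It was at 1.12, 1.52, 1.82 and 1.28 normalized CPM against 0.894, 0.533, 0.869 and 2.47, a log2 fold change of -0.26 ± 0.42 (FDR = 0.884). Without TK-/- tagged replicate 4, the highest library, the value of *Timd4* was -0.90. *Cbr2*, a carbonyl reductase of resident macrophages, had a log2 fold change of -0.49 ± 0.24 (FDR = 0.577, exact permutation p = 0.171). *F13a1*, a coagulation factor subunit, was at -0.37 ± 0.18, the chemokine *Pf4* at -0.37 ± 0.23 and the lysosomal protease *Ctss* at -0.33 ± 0.22. *Folr2*, a folate receptor, was at -0.35 ± 0.28. Of its 1546 exon bases 975 are shared with the antisense gene *Gm10602*. That gene had a mean of 0.480 normalized CPM and did not pass the filter on low counts.

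Fc receptors bind antibodies. The activating ones and *Trem2* signal through adaptors with ITAM motifs, *Fcer1g* and *Tyrobp*. All 6 members of this group were below 0, between -0.35 and -0.19, with a median log2 fold change of -0.22, and none was called. *Trem2*, a lipid receptor of phagocytes, had the lowest value. It was at 2.99, 7.33, 5.25 and 3.36 normalized CPM in the control-tagged libraries and at 6.26, 4.44, 2.13 and 2.07 in the TK-/- tagged libraries. The libraries of both groups were interleaved. The log2 fold change was -0.35 ± 0.38 (FDR = 0.813). It was -0.73 without TK-/- tagged replicate 1 and -0.066 without control-tagged replicate 2. *Fcgr3* had the highest value of the group, with 29.4, 34.1, 28.4 and 27.5 normalized CPM against 31.8, 20.6, 22.5 and 29.7 and a log2 fold change of -0.19 ± 0.14 (FDR = 0.724). TK-/- tagged replicates 2 and 3 were below the control range and the other 2 within it. The inhibitory receptor *Fcgr2b* was at -0.23 ± 0.20, the high-affinity receptor *Fcgr1* at -0.21 ± 0.32, *Tyrobp* at -0.23 ± 0.18 and *Fcer1g* at -0.19 ± 0.16. *Fcgr2b* and *Fcgr3* are similar in sequence, and their reads may not be fully separated.

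*Mertk* and *Axl* are TAM receptor kinases by which phagocytes recognise dying cells, and *Gas6* bridges them to the exposed phosphatidylserine. *Axl* was at 103, 134, 115 and 97.6 normalized CPM in the control-tagged libraries and at 95.1, 84.6, 76.5 and 116 in the TK-/- tagged libraries. Here replicate 4 of the TK-/- tagged libraries lay inside the control range and the other 3 below it, for a log2 difference of -0.27 ± 0.14 (FDR = 0.606, exact permutation p = 0.143). *Mertk* was at 12.3, 20.1, 14.5 and 20.5 normalized CPM against 17.5, 12.7, 16.3 and 15.6, and every TK-/- tagged library lay within the control range. Its log2 fold change was -0.11 ± 0.17 (FDR = 0.872). *Gas6* was at 208, 206, 298 and 248 normalized CPM in the control-tagged libraries and at 205, 209, 203 and 213 in the TK-/- tagged libraries. The TK-/- tagged libraries had a coefficient of variation of 2.24%, and the log2 fold change was -0.21 ± 0.12 (FDR = 0.634). *Gas6* shares 34 of its 2548 exon bases with *Tmem255b* on the opposite strand.

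Lymphocyte genes had few counts. Of 4 tested members 2 were above and 2 below 0, with a median log2 fold change of 0.13, and none was called. *Cd3e*, a chain of the T-cell receptor complex, was read from 3 to 20 counts per library. It was at 1.05, 0.290, 0.471 and 0.240 normalized CPM in the control-tagged libraries and at 1.63, 0.266, 0.474 and 0.399 in the TK-/- tagged libraries. Replicate 1 of either group was the highest of its group, and the log2 fold change was 0.43 ± 0.63 (FDR = 0.866). *Cd8a*, the co-receptor of cytotoxic T cells, was at 1.27, 0.726, 0.135 and 0.3998 normalized CPM against 1.71, 0.621, 0.553 and 0.638, a log2 fold change of 0.48 ± 0.58 (FDR = 0.839). Its highest libraries were the same as for *Cd3e*. Without TK-/- tagged replicate 1 neither gene passed the filter, and the TK-/- tagged means of 0.380 for *Cd3e* and 0.604 for *Cd8a* were then below the control-tagged means of 0.512 and 0.633 normalized CPM. *Cd4*, which mouse T cells and some macrophages carry, was at 1.95, 2.76, 3.23 and 2.56 normalized CPM against 3.33, 1.95, 1.74 and 1.67, a log2 fold change of -0.27 ± 0.28 (FDR = 0.800). TK-/- tagged replicate 1 was the highest of all libraries and the other 3 were near or below the lowest control-tagged one. *Cd79a*, the signaling chain of the B-cell receptor, was at 1.87, 2.03, 1.48 and 1.599 normalized CPM against 1.30, 1.42, 1.82 and 1.67, a log2 fold change of -0.16 ± 0.24 (FDR = 0.866). Its groups overlapped. *Cd3g*, another chain of the T-cell receptor complex, had 3 to 21 counts per library, and *Ms4a1*, the B-cell gene of CD20, had 1 to 14.

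Of the 4 tested neutrophil and inflammatory genes 3 were above 0, with a median log2 fold change of 0.15, and none was called. The difference from the macrophage groups was not tested. *S100a8* and *S100a9* encode the subunits of calprotectin, an abundant protein of neutrophils. *S100a8* was at 1.42, 2.25, 1.61 and 1.36 normalized CPM in the control-tagged libraries and at 0.894, 3.55, 2.69 and 1.28 in the TK-/- tagged libraries. TK-/- tagged replicates 2 and 3 were the highest and replicates 1 and 4 the lowest, and the log2 fold change was 0.33 ± 0.40 (FDR = 0.841). *S100a9* had a log2 fold change of 0.12 ± 0.39 (FDR = 0.948), from 1.14 to 4.44 normalized CPM. *Il1b*, the cytokine interleukin-1 beta, was at 4.64, 1.81, 1.28 and 2.16 normalized CPM against 2.60, 1.95, 1.74 and 1.28, a log2 fold change of -0.38 ± 0.39 (FDR = 0.800). Control-tagged replicate 1 was the highest library, and without it the log2 fold change was 0.12. *Nlrp3*, the sensor of the inflammasome that activates this cytokine, had a log2 fold change of 0.17 ± 0.48 (FDR = 0.940) from 4 to 16 counts per library. *Tnf*, the gene of tumor necrosis factor, had 2 to 12 counts per library and was not tested. *Ly6c2*, a gene of inflammatory monocytes, had 5 to 20 counts and a close paralog, *Ly6c1*, at 159 to 259 normalized CPM.

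Role groups differed in which libraries were high, as the plot of role means by library shows. Mean deviations from the members' own means, on the log2 scale, are given here as descriptions. In TK-/- tagged replicate 1 the pan-leukocyte genes were at 0.28, the Fc receptor group at 0.37 and the 4 tested lymphocyte genes at 0.71, while the resident macrophage genes were at -0.42. Within the resident group *Ctss* at 0.44 and *Lyz2* at 0.07 were above their own means in this library, and the other members were below theirs. The lymphocyte value came from the T-cell genes, with *Cd3e* at 1.44, *Cd8a* at 1.22 and *Cd4* at 0.49, whereas the B-cell genes *Cd79a* at -0.30 and *Ms4a1*, which was not tested, at -1.23 were lowest in this library. In TK-/- tagged replicate 4 the resident macrophage genes were at 0.30 and the pan-leukocyte genes at -0.03. TK-/- tagged replicate 3 was low for most groups, with the pan-leukocyte genes at -0.39, the macrophage identity genes at -0.50 and the Fc receptor group at -0.53, whereas the monocyte, neutrophil and inflammatory genes were at 0.079. The fibroblast genes were at -0.94 in that library as well. The level of *Cd163* per level of *Ptprc* ranged from 0.429 in TK-/- tagged replicate 1 to 2.20 in control-tagged replicate 4.

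**Figure D5:**
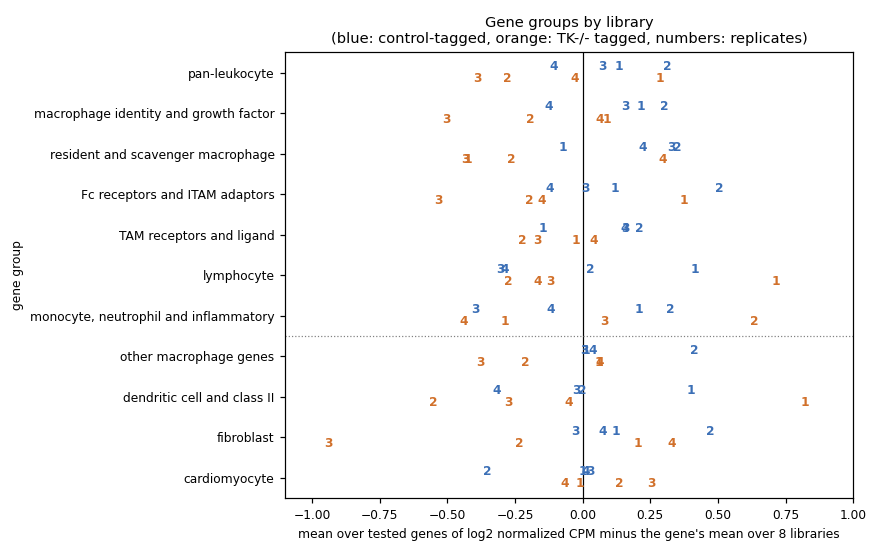
Mean deviation of log2 normalized CPM from each gene's mean over 8 libraries, for the 7 roles of the members and 4 other gene groups, with blue numbers for control-tagged and orange numbers for TK-/- tagged replicates. TK-/- tagged replicate 1 is at 0.71 for the 4 tested lymphocyte genes and at -0.42 for resident macrophage genes, and TK-/- tagged replicate 3 is at -0.94 for fibroblast genes.

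Lower values were also seen for genes of other cell types. Of 29 tested genes of a further macrophage list, which had 31 genes, 27 were below 0 with a median log2 fold change of -0.21, and none was called. *Stab1*, a scavenger receptor of macrophages and some endothelium, was at 151, 153, 210 and 126 normalized CPM in the control-tagged libraries and at 116, 112, 123 and 125 in the TK-/- tagged libraries. These groups did not overlap, and the log2 fold change was -0.43 ± 0.14 (FDR = 0.464, exact permutation p = 0.0286). All 8 fibroblast genes were below 0, with a median of -0.19 and a summed level of 1293 to 1971 normalized CPM against 677 to 1645. Of 8 endothelial genes 7 were below 0, with a median of -0.28 and a summed level of 1433 to 1805 against 1294 to 1419. Of 7 pericyte and smooth muscle genes 6 were below 0, with a median of -0.43 and a summed level of 1368 to 1953 against 983 to 1496. The lowest p among these vascular genes were those of *Kcnj8* (log2 fold change -0.65 ± 0.16), *Pdgfrb* (-0.54 ± 0.14) and *Vwf* (-0.62 ± 0.17), followed by the endothelial genes *Cdh5* (-0.38 ± 0.12) and *Tie1* (-0.40 ± 0.13), with FDRs of 0.442 to 0.464. All 5 red blood cell genes were below 0, with a median of -0.37 and a summed level of 309 to 766 against 359 to 601. In contrast, 6 of 8 cardiomyocyte genes were above 0, with a median of 0.18 and a summed level of 58836 to 83759.7 against 71738 to 93176. None of these genes was called. The part of these cell types in the lower macrophage values was not tested.

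Smaller leukocyte lists gave no call. Of 18 tested genes of monocyte recruitment and activation 13 were below 0, with a median log2 fold change of -0.12. Lowest in p was *Nos2*, the inducible nitric oxide synthase, at 15.9 to 27.1 against 11.4 to 15.6 normalized CPM and a log2 fold change of -0.60 ± 0.18 (FDR = 0.453, exact permutation p = 0.0286). The 3 tested neutrophil genes were above 0, among them *Csf3r*, the receptor of a granulocyte growth factor, at 0.16 ± 0.24 and the protease *Mmp9* at 0.62 ± 0.42. Of 7 tested T and NK cell genes 4 were below 0. *Thy1*, carried by T cells and also by fibroblasts, was lowest among them at 19.9 to 24.5 against 10.9 to 18.4 normalized CPM and -0.63 ± 0.17 (FDR = 0.442, exact permutation p = 0.0286). Of 6 tested B and plasma cell genes 4 were below 0, among them *Cd37*, a tetraspanin of B cells, at -0.30 ± 0.16.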

How the data were processed

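Total RNA of frozen LVs was sequenced as 4 control-tagged and 4 TK-/- tagged libraries. The labels give rRNA depletion for library preparation, whereas the study's methods give poly-A selection. Per the submitters' processing notes and the study's methods, the authors demultiplexed reads with bcl2fastq 2.20.0.422, trimmed them with Trim Galore 0.4.4, aligned them to GRCm38 with STAR 2.5.4b and counted them per gene with featureCounts. The authors deposited whole-number counts per gene for all 8 libraries, not normalized. Whether strand or reads with several alignments were counted is not given in the sources used here, so overlapping antisense genes and paralogs may share reads.

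Counts were scaled with TMM factors (0.917 to 1.12) and tested in edgeR 4.0.16 (R 4.3.3, glmQLFit and glmQLFTest, no covariates, all 8 libraries) after keeping the 13542 genes with at least 1 CPM in at least 2 libraries. Log2 values used a prior count of 2. The likelihood ratio test, DESeq2 1.42.0, other scalings and filters, robust dispersions, a replicate block and leaving out each library were alternatives. For named genes, a 2-sided exact permutation test ran over the 70 assignments of libraries. RPKM used exon lengths of GENCODE for GRCm38, in which all 45 identifiers were found. The scripts were tested on simulated data.

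Members, lists and tests were chosen with earlier results of these data known. Values per library are given for members with an unadjusted p under 0.05, the highest and lowest fold change of each role and 12 anchor genes (*Ptprc*, *Cd68*, *Adgre1*, *Csf1r*, *Cd163*, *Mrc1*, *Lyz2*, *Spi1*, *Cd3e*, *Cd79a*, *Il1b* and *S100a8*). Of other lists, genes with a p under 0.01 are named, or otherwise the 2 lowest of each leukocyte list. Single values of some of these genes are not reported here. *Pecam1*, *Myh6*, *C1qa* and *Adipoq* were named as tissue markers, and *Gas6* and *Cd74* given per library, after their values were seen. Libraries were grouped by genotype tag, which contradicts the title. The labels do not say that each library came from a separate mouse, so p-values measure only the spread between these libraries.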

Additional observations from a re-analysis of the deposited data

Results flagged for a closer look

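In groups of 4 libraries, a library was marked when its gap to the nearest other library was a larger share of the group's range than Dixon's critical value allows. Chance marks about 1 in 20 groups, and 7 marks came from 76 groups checked. For 4 genes the library was TK-/- tagged replicate 1, as the highest of its group. The gap was 0.847 of the range for *Cd3e* (1.63 against 0.474 normalized CPM in the next library), 0.832 for *Cd4* (3.33 against 1.95), 0.927 for *Cd8a* (1.71 against 0.638) and 0.906 for *Ciita*, the activator of class II genes (4.23 against 2.13). *Vwf*, von Willebrand factor of the endothelium, was highest among the control-tagged libraries in replicate 3 with a gap of 0.865, and lowest among the TK-/- tagged libraries in replicate 2 with a gap of 0.926. *Kcnj8*, a potassium channel gene of pericytes, was lowest in TK-/- tagged replicate 2 with a gap of 0.843.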

How the results depend on the processing

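In 16 alternative fits no member was called, and the members' median log2 fold change stayed below 0. The number of genes called among all tested was 53 with the likelihood ratio test, 32 with DESeq2, 23 without a filter on low counts and 1 to 3 when 1 library was left out. The number of members with an unadjusted p under 0.05 was 4 with the likelihood ratio test, 10 without a filter and 1 to 11 when 1 library was left out. The main fit did not treat libraries with the same replicate number as pairs. Of the 4 same-numbered correlations of deviations from the group means, only 1 was over 0.1 (0.343, the others -0.055, -0.029 and 0.029). These correlations cannot exclude a pairing, since the deviations sum to 0 within each group. With a replicate block 7 members had an unadjusted p under 0.05, and no member was called. Of the 38 members tested in all 16 alternatives 32 kept their sign, and *Cd3e*, *Cd8a* and *Nlrp3* did not pass the filter in 3 of them. Of the 22 members given by the rule only *Csf1r* stayed within 1.5 times its log2 fold change whichever library was left out. Of the members given per library, 5 changed sign when 1 library was left out. Their log2 fold changes ran from -0.32 to 0.000905 for *Ptprc*, -0.064 to 0.22 for *Cd52*, -0.0027 to 0.20 for *Csf1*, -0.040 to 0.58 for *S100a8* and -0.60 to 0.12 for *Il1b*. The cause was not tested.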

Other observations

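Of 10 tested genes of dendritic cells and antigen presentation 6 were above 0 and 4 below in the TK-/- tagged libraries, with a median log2 fold change of 0.07, and none was called by edgeR and none had an unadjusted p under 0.05. *Cd74*, the invariant chain of class II molecules, was at 369, 277, 307 and 213 normalized CPM in the control-tagged libraries and at 456, 182, 243 and 302 in the TK-/- tagged libraries, with a log2 fold change of 0.02 ± 0.25 (FDR = 0.986). The highest and the lowest library were both TK-/- tagged. The mean deviation of the list was 0.82 in TK-/- tagged replicate 1 and -0.55 in TK-/- tagged replicate 2, wider apart than the control-tagged libraries at -0.32 to 0.40. *Ccr7*, a homing receptor of dendritic cells and lymphocytes, was at -0.64 ± 0.41.

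All 4 tested mast cell genes were below 0, with a median log2 fold change of -0.40. The summed level of all 6 listed mast cell genes was 8.46 to 12.7 normalized CPM in the control-tagged libraries and 6.39 to 9.26 in the TK-/- tagged libraries. *Cma1*, a chymase, was at -0.78 ± 0.39 (FDR = 0.591) and the protease *Mcpt4* at -0.42 ± 0.28 (FDR = 0.681).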
